A study of Mus musculus with 2 samples.

Results

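The red cell membrane set comprised 8 mouse genes, Ank1, Sptb, Epb42, Slc4a1, Rhag, Rhd, Ermap and Kel, out of 18069 genes with a probe of their own on the array. Members were found by gene symbol and identifier in the array's annotation, which gave 9 probes, 2 of them for Sptb and 1 for each other gene. No probe annotated to several genes included a member. The signal of each probe was compared between 2 pools of mouse embryos, each of total RNA from the embryo proper (the embryo without its membranes) at embryonic day 8.5. One pool held 45 embryos homozygous for a mutation of mDom (mDom-/-, the gene also called p400 and now Ep400), and the other 42 wild-type embryos matched by litter. The embryos of both pools carried no other stated allele or treatment. The type of mDom allele and the strain are not stated in the labels. One single-colour CodeLink array, a glass slide with 1 long oligonucleotide per spot, was hybridised per pool. With a single array in each group, differences have no replicate error and were not tested, and precision is limited by the number of arrays.

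The red cell membrane is a lipid bilayer laid over a spectrin meshwork. Ankyrin and protein 4.2 tie the spectrin to band 3, the chloride and bicarbonate exchanger, and around band 3 sit the Rh complex and several blood group proteins. At this stage of mouse development the blood consists of primitive erythroblasts, large nucleated cells made in the yolk sac, which enter the embryo as the heart begins to beat and go on building hemoglobin and membrane while they circulate. In RNA from a whole embryo, fewer red cells and less of a transcript per red cell cannot be told apart.

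Signals are expressed as multiples of the array median, and ratios as log2 of the mDom-/- over the wild-type signal. Signals under 0.541 array medians, the 40th percentile of the arrays, were raised to that floor before the ratio was taken. A member above the floor on 1 array only therefore has a bound in place of a ratio. Ratios of single probes varied about the mean of their gene with an SD of 0.25 on the log2 scale (1301 genes with 2 probes above the floor on both arrays). Both probes were read on the same 2 arrays. The SD thus covers error of single probes, and not a difference between the arrays that both probes share or the spread between pools. Of 12 genes that mark neural tube, somite, heart or axis, 10 were above the floor on both arrays. Genes of visceral endoderm and yolk sac were bright too, among them Ttr at 251.2 in the mDom-/- pool and 166.6 in the wild-type pool. How far this signal came from tissue outside the embryo proper was not tested. Both probes of Ep400 were below the floor on both arrays, at 0.071 and -0.029 in the mDom-/- pool and 0.470 and 0.215 in the wild-type pool. Both were lower in the mDom-/- pool, but at signals this dim they are no firm check of the label.

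The 8 members fell into 3 kinds of reading. Ermap, Rhag, Sptb and Epb42 were above the floor on both arrays. Kel, Rhd and Slc4a1 were above it in the wild-type pool only, and Ank1 on neither array. No compared member met a rule of at least 2-fold lower signal in mDom-/- embryos (0 of 7; over all 13136 compared genes the share was 0.929%), and none was at least 2-fold higher (0 of 7; all compared genes 0.845%). Of the 7 log2 ratios, 5 were below 0, against 50.5% of all compared genes, and their median was -0.057, against -0.0036 over all compared genes. Neither figure supports a direction, because 3 of the 5 are bounds of members that entered the comparison only through the wild-type array.

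**Figure D1:**
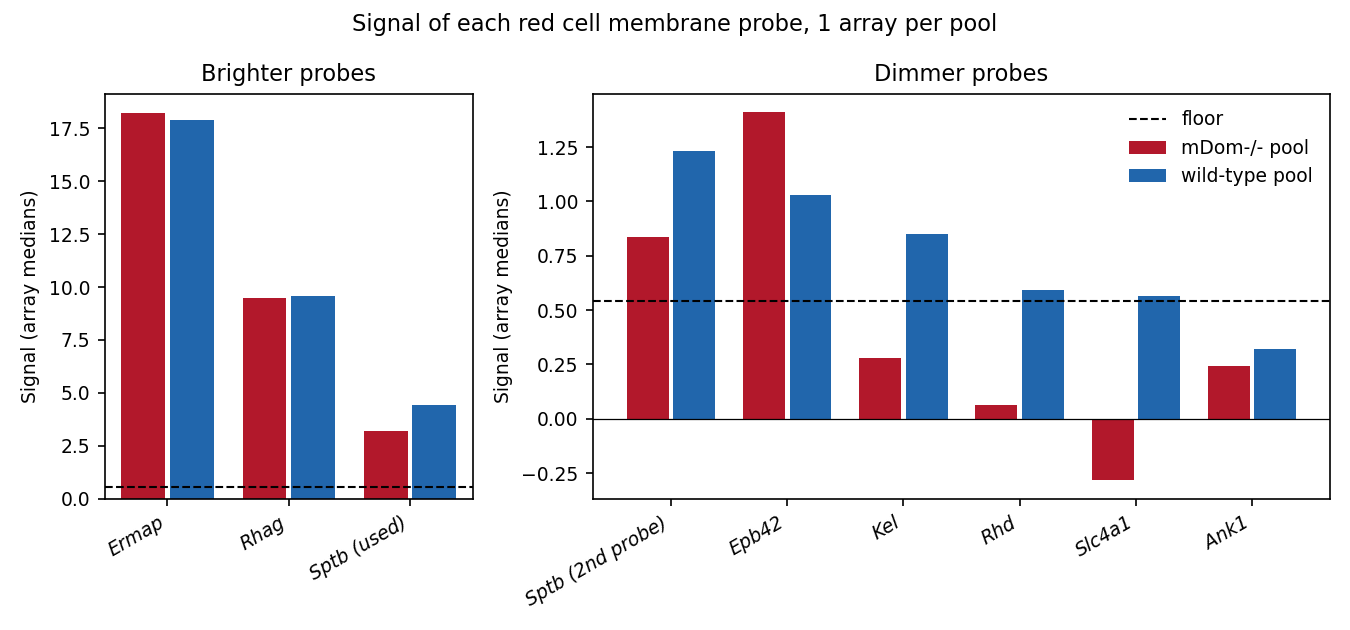
Signal of each of the 9 member probes in array medians (vertical axis, linear, different range in each panel) in the mDom-/- pool (red) and the wild-type pool (blue), 1 array each, with the floor of 0.541 as a dashed line. Ermap and Rhag have bars of nearly equal height, both Sptb probes are lower and Epb42 is higher in the mDom-/- pool, and Kel, Rhd and Slc4a1 cross the floor only in the wild-type pool.

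Among the membrane skeleton and its anchors, Sptb, which encodes the beta subunit of erythroid spectrin, the rod protein of the meshwork, was lower in the mDom-/- pool by both of its probes. The brighter probe read 3.18 in the mDom-/- pool and 4.43 in the wild-type pool, 1.40-fold lower (log2 ratio -0.48). The dimmer one read 0.835 in the mDom-/- pool and 1.23 in the wild-type pool, 1.48-fold lower (log2 ratio -0.56). The 2 probes differed from each other by 0.081 on the log2 scale. The SD of a single probe about its gene was 0.25, and a difference of 2 probes varies more than that. Sptb is thus the only member with a second reading, and that reading had the same sign. The ratio lay inside the central 95% of genes of like brightness (the same of 4 equal groups by mean signal), which ran from -0.68 to 0.65.

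Ank1 encodes erythroid ankyrin, the adaptor that holds spectrin to band 3. Its probe read 0.241 in the mDom-/- pool and 0.320 in the wild-type pool, below the floor on both arrays, so no ratio is given. Epb42 encodes protein 4.2, a member of the transglutaminase family without enzyme activity that steadies the link between ankyrin and band 3. Its probe read 1.41 in the mDom-/- pool and 1.03 in the wild-type pool, 1.37-fold higher (log2 ratio 0.45), the highest ratio of the members. The signal was dim, and the central 95% of genes of like brightness ran from -0.88 to 0.79.

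Slc4a1 encodes band 3 itself, which exchanges chloride for bicarbonate and is the main anchor of the meshwork. Its probe read -0.282 in the mDom-/- pool, a value under 0, and 0.563 in the wild-type pool, just above the floor. The bound is at least 1.04-fold lower, which says little, because a signal so close to the floor leaves almost no room to read a decrease.

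Rhag and Rhd encode the 2 related subunits of the red cell Rh complex. Rhag, the Rh-associated glycoprotein, conducts ammonia and is needed for the complex to reach the surface, and Rhd carries the Rh antigen in humans. The Rhag probe read 9.49 in the mDom-/- pool and 9.57 in the wild-type pool, a log2 ratio of -0.012. The Rhd probe read 0.064 in the mDom-/- pool and 0.591 in the wild-type pool, at least 1.09-fold lower. The bright partner was nearly equal in both pools, whereas the dim partner was above the floor in the wild-type pool only. Whether the 2 ratios differ cannot be read from a bound so near 1.

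Ermap encodes an erythroblast membrane protein of the butyrophilin family that carries the Scianna blood group in humans, and Kel the Kell blood group protein, a surface peptidase that cleaves endothelin precursors. Ermap read 18.2 in the mDom-/- pool and 17.9 in the wild-type pool, a log2 ratio of 0.029. Kel read 0.280 in the mDom-/- pool and 0.851 in the wild-type pool, at least 1.57-fold lower. Kel was past 1.5-fold (1 of 7; 4.35% of all compared genes were at least 1.5-fold lower). Its bound is its wild-type signal over the floor, and neither Slc4a1 nor Rhd was bright enough to reach 1.5-fold with this floor. No member was at least 1.5-fold higher (0 of 7; all compared genes 4.08%).

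**Figure D2:**
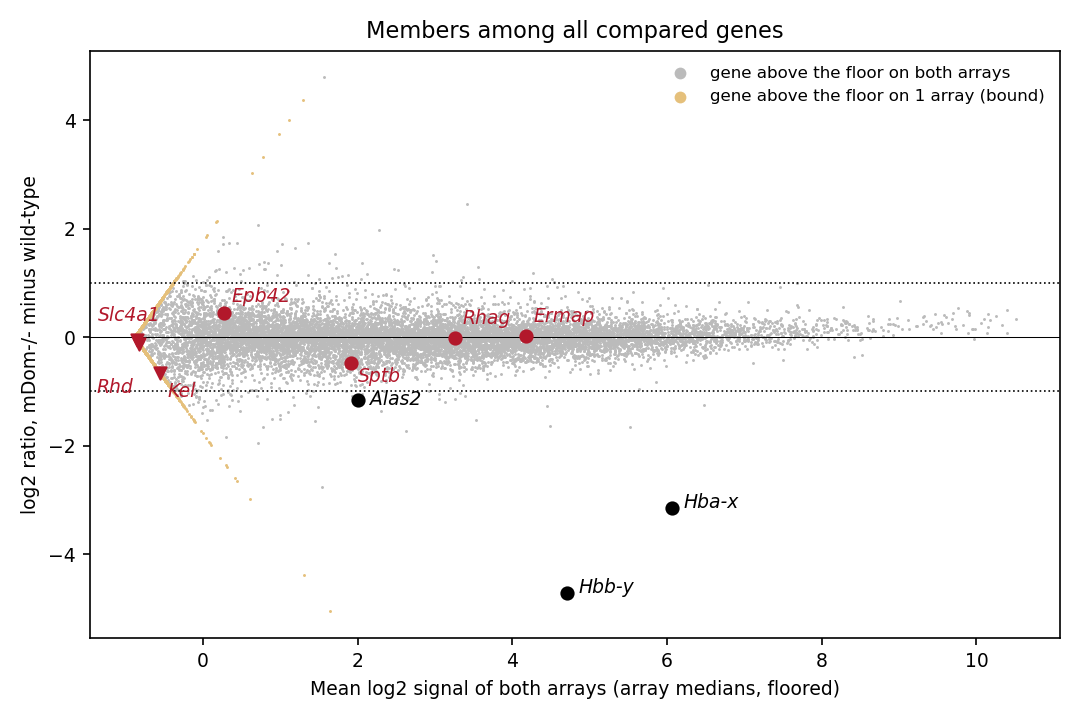
log2 ratio of mDom-/- over wild-type (vertical) against mean log2 signal of both arrays in array medians (horizontal) for the 13136 compared genes, with members in red, Hbb-y, Hba-x and Alas2 in black, and bounds as triangles. Members lie within the cloud between the dotted 2-fold lines, and the 2 globin genes lie far below it.

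Brightness set how large a decrease each probe could have shown. The ranges below take all signal above the floor to come from the member's transcript in red cells, which was not tested. The embryonic globin genes, the main product of these cells, serve as the scale. The Hbb-y probe had 5.12 in the mDom-/- pool and 133.8 in the wild-type pool, 26.2-fold lower. The Hba-x probe had 22.4 in the mDom-/- pool and 199.9 in the wild-type pool, 8.91-fold lower. A decrease of the size of Hbb-y could be read only from Ermap, whose wild-type signal was 33.0 times the floor. One of the size of Hba-x could be read from Ermap and from Rhag, whose wild-type signal was 17.7 times the floor. Both were nearly equal in the pools, 1.02-fold higher for Ermap and 1.01-fold lower for Rhag. Sptb could have shown 8.20-fold, Epb42 1.91-fold, Kel 1.57-fold, Rhd 1.09-fold and Slc4a1 1.04-fold. A 2-fold decrease was therefore within reach of 3 of the 8 members, and the other 5 could not have met the rule with this floor.

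For the 4 dim members the raw difference in signal, which needs no floor, was set beside that of 10711 probes with a mean signal between 0.1 and 0.6 array medians, a range chosen after the values were seen. In that range the difference of mDom-/- minus wild-type had a median of 0.014 and an SD of 0.29, and 48% of probes were below 0. The difference was -0.85 for Slc4a1, -0.57 for Kel, -0.53 for Rhd and -0.079 for Ank1. The share of dim probes that lay at least as far below was 0.383% for Slc4a1, 2.27% for Kel and 3.17% for Rhd, but 37.0% for Ank1. So 3 of the 4 dim members were among the lowest 5% of dim probes, each by 1 probe on 1 array per pool. These shares describe the 2 arrays and are not p-values.

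The same reading of dim probes was taken for the other lists. Of 5 dim probes for transcription factor, receptor and cytosolic genes of red cells, 2 were in the lowest 5%. One was Hemgn, a nuclear protein gene of erythroblasts, which read -0.279 in the mDom-/- pool and 0.924 in the wild-type pool. The other was Gata1, the master transcription factor of the lineage, at 0.219 in the mDom-/- pool and 0.725 in the wild-type pool. The rest of the 5 lay outside the lowest 5%. Zfpm1 (0.205 in the mDom-/- pool and 0.490 in the wild-type pool) and Klf1 (0.087 and 0.132) were lower in the mDom-/- pool but below the floor on both arrays. Gfi1b (0.555 and 0.305) was higher in the mDom-/- pool. The adaptor gene Add2 (0.035 in the mDom-/- pool and 0.712 in the wild-type pool) was the one of 4 dim skeleton probes in the lowest 5%. Dim probes of other cell types were there too, 1 of 4 for endothelium (Emcn) and 1 of 3 for megakaryocytes. None of the 3 dim surface probes was in the lowest 5%. There was also none among the 6 dim probes of relatives of the members, the 2 of macrophages, and the 1 each of the transporter, globin and heme, and trophoblast lists. The 3 dim surface probes, Cd44, Bsg and Icam4, were higher in the mDom-/- pool. Cd44 read 0.655 in the mDom-/- pool and 0.034 in the wild-type pool. The share of dim probes at or below its difference was 98.2%, and for Bsg and Icam4 90.5%. The upper end was not counted for the lists.

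The start regions of 4 members are shown because all 4 hold both motifs marked in capitals while their array readings were of different kinds: Rhag and Ermap were nearly equal in the pools, and Rhd and Kel were above the floor in the wild-type pool only. Sequences are from RefSeq (GRCm38.p6), which had 1 window each for 6 of the 8 members, Ank1 and Slc4a1 not among them. Each is the 250 bases before the start of the gene, 5′ to 3′ on the strand of the gene, at chr17:40810899-40811148 (plus strand) for Rhag, chr4:119189996-119190245 (minus strand) for Ermap, chr4:134864286-134864535 (plus strand) for Rhd and chr6:41704326-41704575 (minus strand) for Kel. Capitals mark matches on either strand to the GATA letters AGATAA, their variant ending in G, which is AGATAG, and the same pair with a leading T, which reads TGATAA in one form and TGATAG in the other form, all of which the red cell factor Gata1 can bind, and to CACCC, which can be bound by the erythroid factor Klf1.
Rhag: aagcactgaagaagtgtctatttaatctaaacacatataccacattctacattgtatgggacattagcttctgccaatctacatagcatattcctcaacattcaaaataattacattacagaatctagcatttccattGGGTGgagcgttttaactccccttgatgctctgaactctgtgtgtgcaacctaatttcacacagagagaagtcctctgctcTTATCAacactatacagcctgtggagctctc
Ermap: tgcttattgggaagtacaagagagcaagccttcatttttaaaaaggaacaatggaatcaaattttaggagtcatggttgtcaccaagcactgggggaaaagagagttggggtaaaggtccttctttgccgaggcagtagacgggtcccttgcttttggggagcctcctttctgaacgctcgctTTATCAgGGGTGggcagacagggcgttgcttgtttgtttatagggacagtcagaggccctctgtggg
Rhd: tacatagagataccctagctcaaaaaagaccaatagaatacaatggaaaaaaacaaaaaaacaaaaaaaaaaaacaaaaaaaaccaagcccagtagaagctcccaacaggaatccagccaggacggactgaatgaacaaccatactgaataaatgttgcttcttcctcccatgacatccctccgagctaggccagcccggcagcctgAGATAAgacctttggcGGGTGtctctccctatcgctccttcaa
Kel: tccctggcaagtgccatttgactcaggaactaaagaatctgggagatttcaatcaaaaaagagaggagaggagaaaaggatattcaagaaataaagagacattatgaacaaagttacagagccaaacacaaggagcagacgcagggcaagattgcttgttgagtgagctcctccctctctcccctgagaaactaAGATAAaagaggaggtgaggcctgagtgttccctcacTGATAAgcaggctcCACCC

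GATA letters were present in 5 of the 6 member windows, all but that of Sptb, and in 26.5% of all 32851 windows of that length. CACCC was present in 5 of the 6, all but that of Epb42, and in 52.0% of all windows. Both were found together in 4 of the 6, the 4 printed, and in 11.8% of all windows. A longer pyrimidine-rich motif, CCNCNCCC on both strands, can overlap CACCC but went the other way. It was found in 1 of 6, Sptb, against 45.9% of all windows, and in none of the 4 printed. A match describes letters in this window and not a bound site.

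Other genes of the red cell membrane were taken as 3 lists of 33 genes. Of the 25 compared, 14 were below 0 (all compared genes 50.5%), with a median log2 ratio of -0.069. None was at least 2-fold lower or higher (all compared genes 0.929% and 0.845%). Several could not have met the lower rule with this floor, among them Mpp1 (1.96-fold at most) and Add2 (1.32-fold at most). Epb41, which encodes protein 4.1, had no probe of its own. Tmod1, Icam4, Aqp1 and Slc14a1 were below the floor on both arrays. In the skeleton list the median was -0.33 over 5 genes, and -0.13 over the 2 above the floor on both arrays. Its lowest member was Mpp1, a scaffold protein gene of the protein 4.1 complex, at 0.286 in the mDom-/- pool and 1.06 in the wild-type pool, at least 1.96-fold lower. Tpm3, a tropomyosin gene of many cells, had -0.33, but 0.30 by a dimmer second probe, and Dmtn, which bundles actin at the meshwork, had 0.061.

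The surface list had a median of -0.078 over 9 genes. Its brightest members were Cd24a (log2 ratio -0.22), Bsg (0.40), Bcam (-0.12) and Cd47 (-0.30), all also used by many cells outside the blood. Xk, the partner that is bound to the Kell protein, read 8.32 in the mDom-/- pool and 8.78 in the wild-type pool by its brighter probe (log2 ratio -0.078), but -0.66 by its second probe. Those 2 Xk probes differed by more than the SD of a single probe about its gene. The transporter list had a median of -0.0057 over 11 genes, from -0.28 (Slc40a1, the iron exporter) to 0.29 (Atp2b4, a calcium pump). Slc2a1, the glucose transporter, had 0.26 and Car2, the carbonic anhydrase that serves band 3, -0.19.

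**Figure D3:**
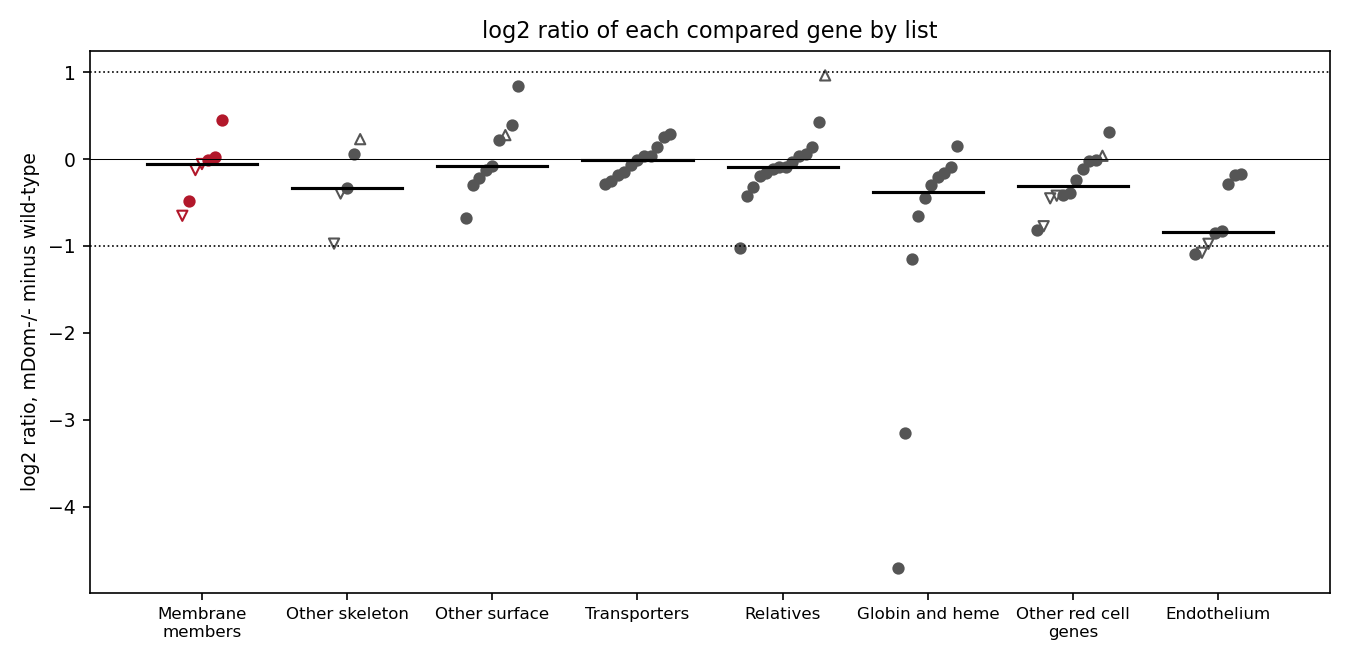
log2 ratio of mDom-/- over wild-type (vertical) for each compared gene of 8 lists, with members in red, open triangles for bounds (pointing down where only the wild-type signal passed the floor, up where only the mDom-/- signal did), list medians as bars and dotted lines at 2-fold. The members and the other membrane lists centre between -0.33 and 0, the globin and heme list has a long tail to -4.71, and all 8 endothelial genes lie below 0.

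Relatives of the members, used mainly outside red cells, had a median of -0.092 over 14 compared genes. Of these, 1 was at least 2-fold lower (1 of 14; all compared genes 0.929%). It was Sptbn1, the beta spectrin of most other cells, at 1.76 in the mDom-/- pool and 3.59 in the wild-type pool (log2 ratio -1.03, 2.04-fold). Its other 2 probes were below the floor on both arrays. Sptan1, a spectrin gene of other cells, read 73.6 in the mDom-/- pool and 91.6 in the wild-type pool (-0.32) and -0.60 by a dimmer probe. Sptbn4 had -0.12. All spectrin probes with a ratio, those of Sptb included, were thus below 0, a grouping made after the values were seen. The spectrin probes below the floor on both arrays went both ways. Another Sptan1 probe read 0.299 in the mDom-/- pool and 0.084 in the wild-type pool. Of the 2 dim Sptbn1 probes, the first read 0.259 in the mDom-/- pool and -0.153 in the wild-type pool. The other read 0.126 in the mDom-/- pool and 0.361 in the wild-type pool. Above the floor only, the lower Sptb signal stood beside lower signals of the spectrins of other cells, and their part in it was not tested.

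Among the ankyrins, Ank2 had -0.091 and Ank3 -0.094, with -0.37 and -0.52 by 2 dimmer Ank3 probes. The anion exchangers related to band 3 went both ways, Slc4a2 at 0.43 and Slc4a3 at -0.20. Rhbg, the Rh-type ammonia channel of epithelia, read 1.05 in the mDom-/- pool and 0.409 in the wild-type pool, at least 1.95-fold higher, and was the one relative above the floor in the mDom-/- pool only. Of the peptidases related to Kell, Ece1 had 0.14, Ece2 -0.038 and Phex -0.42. Tgm1, a transglutaminase related to protein 4.2, had 0.040, and the butyrophilin genes Btn1a1 and Btn2a2, related to Ermap, had -0.16 and 0.058.

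The rest of the red cell program is given for scale. Globin and heme genes had a median of -0.37 over 10 compared genes, with 9 below 0 (all compared genes 50.5%) and Urod above it (0.15). Of the 10, 3 were at least 2-fold lower (all compared genes 0.929%). These were both globins and Alas2, the erythroid first enzyme of heme synthesis. Alas2 read 2.70 in the mDom-/- pool and 5.99 in the wild-type pool, 2.22-fold lower. Transcription factor, receptor and cytosolic genes had a median of -0.32 over 12 genes, 10 of them below 0 (all compared genes 50.5%). None was 2-fold apart (all compared genes 0.929% lower and 0.845% higher). Several could not have met the lower rule with this floor, among them Hemgn (1.71-fold at most), Epor (1.37-fold) and Gata1 (1.34-fold). Of the 10, Hemgn, Epor and Gata1 were bounds above the floor in the wild-type pool only, and over the 8 genes above it on both arrays the median was -0.18. Tal1, a blood and endothelial factor, had -0.018 and Blvrb, a cytosolic reductase gene, -0.014, while Lmo2 had -0.39 and Ldb1 -0.41. The lowest gene of this list was Cited4 at -0.82, above the floor on both arrays. By size alone, Rhag and Ermap were near 0 like Tal1 and Blvrb, and Sptb was nearer Lmo2 and Ldb1. With 1 array per pool this does not separate groups of genes.

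Markers of other cell types were read in the same way. All 8 compared endothelial genes were below 0 (all compared genes 50.5%), with a median of -0.83. That median includes Pecam1 and Cldn5, bounds of genes that entered the comparison only through the wild-type array. The summed signal was 58.1 in the mDom-/- pool and 77.0 in the wild-type pool. The bright endothelial genes were nearer 0, Kdr at -0.29, Esam at -0.19 and Tek at -0.18, while Tie1 had -0.82. Emcn (2.13-fold) and Pecam1 (at least 2.11-fold) were at least 2-fold lower (2 of 8; all compared genes 0.929%). Cdh5 and Flt1 were below the floor on both arrays. Visceral endoderm and yolk sac genes had a median of 0.23 over 10 genes, 5 below 0, with a summed signal of 818.9 in the mDom-/- pool and 618.1 in the wild-type pool. Ttr had 0.59, Apoa1 -0.13, Apoc2 0.92 and Ctsh 0.66, while Lrp2 had -0.74, Cubn -0.62 and Afp -0.33. Most of the gap between the sums came from Ttr and Apoc2, 84.7 and 114.3 array medians higher in the mDom-/- pool. Only 1 macrophage gene (Fcgr3, 0.046) and 1 megakaryocyte gene (Pf4, a bound of -0.089) were compared, and Ptprc, Adgre1, Itga2b and Gp9 were below the floor on both arrays. Trophoblast and decidua markers had 2 compared genes, Prl8a2 (0.15) and Ascl2 (0.50). The part of these cell types in the member values was not tested.

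The reading of the dim members turned on the floor. With the floor at the 25th percentile, 3 members were at least 2-fold lower, Kel with a log2 ratio of -1.60 and Slc4a1 and Rhd with bounds of -1.23 and -1.30, where 3.31% of all compared genes were at least 2-fold lower. With no floor, Kel had -1.60 and Rhd -3.20, where 6.91% of all genes were at least 2-fold lower, and Slc4a1 had no ratio because its mDom-/- signal was negative. Ank1 had -0.41 in both cases. Ermap, Rhag, Sptb and Epb42 kept their ratios under every floor that measured them. The method fixes this, because a floor leaves signals above it unchanged, so it is no check of these ratios. Epb42 was not compared with the floor at the 60th percentile.

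**Figure D4:**
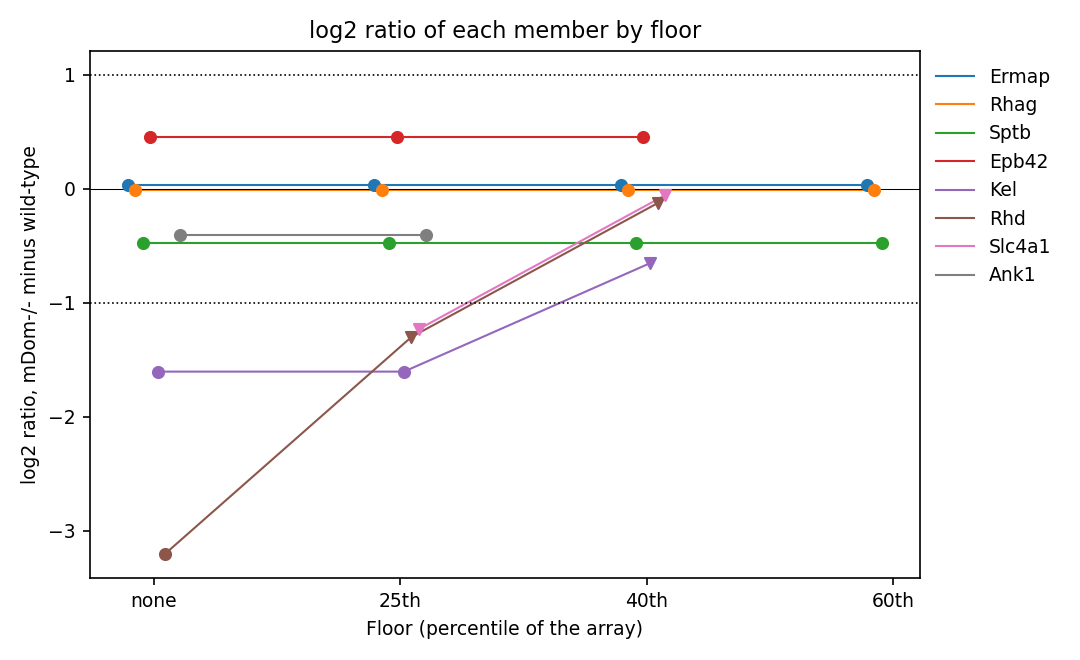
log2 ratio of mDom-/- over wild-type (vertical) for each member under 4 floors (horizontal), with bounds as triangles and dotted lines at 2-fold. The lines of Ermap, Rhag, Sptb and Epb42 are flat because a floor leaves signals above it unchanged. Kel, Rhd and Slc4a1 drop below -1 once the floor is lowered to the 25th percentile.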

How the data were processed

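The deposited values were linear spot intensities, 1 column per array, which the CodeLink System Software read from the array images, per the labels. No version, background correction or scaling rule is stated there. The linear scale was read from the values, which had medians of 1.05 on both arrays. The code -9999 was read as no value (106 mDom-/- and 105 wild-type probes of 36227).

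Groups were taken from the sample titles. Probes with 1 gene symbol (21615) were named through their identifiers in RefSeq's GRCm38.p6 gene table (names only). Each array was divided by its median, raised to the floor and put on the log2 scale. A gene took its brightest compared probe. Of 13136 compared genes, 11926 were above the floor on both arrays. Steps were run in Python 3.11.15 with pandas 2.3.3 and statsmodels 0.14.6, and tested on simulated data.

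Members and lists were chosen with earlier results of these data known. All member probes are given. Of the other lists, genes at least 2-fold apart and up to 4 bright ones are named, and every compared relative of the members. Add2, Hemgn, Gata1, Zfpm1, Klf1, Gfi1b, Epor, Cited4, Cldn5, Mpp1, Xk, Dmtn, Slc40a1, Atp2b4, Cd44, Icam4, Lrp2, Cubn, Afp and genes named as unmeasured fall outside that rule and were chosen after their values were seen, as was the tissue check. Alternatives were other scalings (none, 75th percentile, quantile, loess with span 0.3), floors at the 25th and 60th percentile or none, the mean over probes, other size rules, and genes above the floor on both arrays only. Some genes are not reported here.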

Additional observations from a re-analysis of the deposited data

How the results depend on the processing

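Ermap, Rhag, Sptb and Epb42 moved by less than the SD of single probes (0.25) under every alternative that gave a value, with log2 ratios from 0.027 to 0.052, -0.014 to 0.019, -0.52 to -0.45 and 0.45 to 0.48. The floors could not move these 4, so the ranges come from the scalings and, for Sptb, also from the mean over probes. The sign of Rhag, near 0, turned with the scaling. The count of members at least 2-fold lower, 0 as reported, was 3 with the floor at the 25th percentile and 2 with no floor, and 1 member passed a 1.5-fold rule. Under those floors Kel had -1.60 both times, Rhd -1.30 and -3.20, Slc4a1 -1.23 with the 25th percentile, and Ank1, not compared otherwise, -0.41 both times. The median of the members was -0.45 and -0.41 there. Lowering the floor admits dimmer signals, and over all genes the count at least 2-fold lower was 522 and 1129, against 122 as reported. The skeleton list had a median of -0.014 with the mean over probes, against -0.33. The medians of the surface list (-0.17 to 0.071) and the transporter list (-0.069 to 0.036) changed sign between alternatives. The count of members at least 2-fold higher was 0 under every alternative. The floor at the 60th percentile left 3 members compared. No paired analysis was possible because there was 1 array per group. Signal over the floor limits what Ank1, Slc4a1, Rhd and Kel can show.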
